A study of Homo sapiens with 18 samples.

Results

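The POU factors and pluripotency regulators described here are 10 genes of the 28277 in the count table. Of these, 6 belong to the POU family (POU2F1, POU2F2, POU2F3, POU3F2, POU4F1 and POU5F1), and the others are SOX2, NANOG, LIN28A and LIN28B. The genes were chosen by name, with no threshold on any value, but the list was drawn up with earlier results of the same libraries in view, and POU2F3 had already been named among those results. The values below therefore describe the genes. Adjusted p-values, always over all genes tested, place a gene among the others and are no independent support. For POU2F3 no p-value is given. Only 3 of the 10 genes passed the filter on low counts and were tested (POU2F1, POU2F3 and LIN28B), while the other 7 are given by their counts.

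RNA was sequenced from OVCAR3, an established ovarian cancer cell line, in 18 libraries that form 6 groups of 3. All cells, controls included, stably expressed dCas9-KRAB, a catalytically dead Cas9 fused to a transcriptional repressor, which is steered by a guide RNA (CRISPR interference, CRISPRi). The guides were sgControl, directed at a Gal4 promoter sequence, and sgXIST7 and sgXIST9, directed at separate stretches of the promoter of XIST, the long noncoding RNA of X chromosome inactivation. Each guide was studied in clonal cells, without treatment (normoxia) or after 24 h in a chamber at 1% oxygen (hypoxia). The effect of a guide and of the clone that carries it cannot be told apart. The study calls the 3 libraries of a group biological replicates without saying how they were separated or whether they come from 1 clone. P-values therefore measure the spread between libraries of a group, which may be partly technical. The cells of a guide are called a clone below.

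POU proteins bind DNA through a bipartite POU domain, and many of them recognise the octamer ATGCAAAT. POU5F1 (OCT4), SOX2 and NANOG form the core transcription factor circuit of pluripotent stem cells. POU2F1 (OCT1) is present in most tissues, POU2F2 (OCT2) is best known from B cells, POU2F3 (SKN-1a) specifies tuft cells and is expressed in keratinocytes, and POU3F2 (BRN2) and POU4F1 (BRN3A) act in neural lineages. LIN28A and LIN28B bind the precursors of let-7 microRNAs and block their maturation, and mature let-7 in turn represses LIN28B through its messenger RNA. LIN28B is an oncofetal gene that is switched on again in some ovarian cancers.

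The sequences of the LIN28B and let-7 loop are shown first, because LIN28B was called lower under hypoxia in all 3 clones below. The mature let-7 family in RefSeq holds 9 members from 12 hairpin genes, and all 9 share 1 seed, bases 2 to 8, in capitals.
hsa-let-7a-5p: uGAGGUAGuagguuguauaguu
hsa-let-7d-5p: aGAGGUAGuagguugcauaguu
hsa-let-7g-5p: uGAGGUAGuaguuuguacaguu
hsa-let-7i-5p: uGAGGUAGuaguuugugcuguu
hsa-miR-98-5p: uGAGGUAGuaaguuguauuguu

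The reverse complement of that seed, CTACCTC, occurs 5 times in the exons of LIN28B, all in exon 4 of 4 on the plus strand. Of these, 1 lies in the coding sequence and 4 in the 3′ UTR of the GENCODE transcript. Each stretch is given in hg38 with the 7 matching bases in capitals.
chr6:105078445-105078466, coding: gctaaggaatgtagtCTACCTC
chr6:105078812-105078833, 3′ UTR: acccggttgcaaagtCTACCTC
chr6:105081239-105081260, 3′ UTR: tactgatgatagtaaCTACCTC
chr6:105081421-105081442, 3′ UTR: gtttacagcaaaaggCTACCTC
chr6:105082860-105082881, 3′ UTR: aaatgatggtgttgaCTACCTC

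Within the last 4000 bases of its longest coding transcript LIN28B had 3 of these matches. At least as many were found in 0.552% of the 7067 genes with a transcript of that length (39 genes), and at least 1 in 23.857%. A match is a description of the sequence and not a measured site.

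RefSeq (GRCh38.p14) listed 10 promoters for 7 of the 10 genes. The octamer ATGCAAAT, searched on both strands, was in 1 of the 10, a promoter of POU2F1 at chr1:167328820-167329119, and in 1.774% of all 35116 promoters of 300 bases. The core that hypoxia-inducible factors bind, ACGTG or GCGTG on either strand, was in 8 of the 10 and in 48.445% of all promoters, but 2 of the 8 are POU2F1 entries offset by 1 base that share their match. The share over all promoters was not matched for GC content, which ran from 39.0% to 73.0% in the 8. The promoter at the start of LIN28B in the count table, chr6:104956857-104957156 on the plus strand, held that core on both strands of the single palindrome CACGTG, in capitals, which is also an E-box.
LIN28B promoter: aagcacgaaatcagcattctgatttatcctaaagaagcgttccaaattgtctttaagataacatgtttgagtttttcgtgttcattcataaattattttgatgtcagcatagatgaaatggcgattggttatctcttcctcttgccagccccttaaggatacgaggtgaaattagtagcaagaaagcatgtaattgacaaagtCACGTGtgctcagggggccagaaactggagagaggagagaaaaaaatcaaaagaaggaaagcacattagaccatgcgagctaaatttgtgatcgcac

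The libraries held 11794375 to 24906936 counts (median 17629433), so that 3 counts, taken as the detection limit of a library, equalled 0.13 to 0.266 CPM (counts scaled to the normalised library size). This limit and all counting intervals cover counting error only. XIST was at 242 to 867 CPM in sgControl and 29 to 53.6 CPM in sgXIST9 in normoxia, and at 0.0436 to 0.222 CPM in sgXIST7, and both knockdown clones were called lower than sgControl at either oxygen level. The HIF targets VEGFA and CA9 were called higher in hypoxia in all 3 clones. ADM, another HIF target, was called higher in sgXIST7 (log2 fold change 4.53) and sgXIST9 (3.93) but not in sgControl (0.17). In normoxia ADM was at 287 ± 33.3 CPM in sgControl, against 8.14 ± 2.02 in sgXIST7 and 7.0 ± 0.884 in sgXIST9 (mean ± SD). Its response was called as higher in both knockdown clones than in sgControl, so the clones did not respond alike. The epithelial markers summed to 298 to 518 CPM over all libraries. EPCAM and KRT18 made up most of it, with group means of 160 to 243 and 140 to 219 CPM. Group means ran from 4.41 to 34.7 CPM for KRT8 and from 1.51 to 4.55 CPM for PAX8. Those of WT1, EMX2 and MSLN reached at most 0.461, 0.815 and 0.579 CPM. KRT7, CDH6, SOX17, FOLR1 and MECOM were at or under the limit in each group, and MUC16 in all but sgXIST9 in hypoxia. The lymphoid and endothelial lists summed to at most 0.695 and 0.775 CPM. The fibroblast list summed to 430 to 1290 CPM, with PDGFRB, DCN or LUM at or under the limit in each group. Most of that sum was COL3A1, a collagen chain, whose group means ran from 523 to 1020 CPM. In hypoxia the libraries of number 3 stood apart in each clone: their log2 CPM correlated at 0.953 to 0.984 with the other libraries of their group, against 0.987 to 0.988 between numbers 1 and 2. CA9 reached 2.92, 35.6 and 44.9 CPM in the number 3 libraries of sgControl, sgXIST7 and sgXIST9. In the other hypoxia libraries of these clones it was at most 0.688, 23.4 and 24.9 CPM. For the tested genes and the gene lists, counts of calls against sgControl or against normoxia that change without these 3 libraries are given both ways.

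The filter split the 10 genes into 2 sets. POU2F1, LIN28B and POU2F3 were counted in every library, and the other 7 never exceeded 15 counts. The ranges of the sets overlapped, since POU2F3 had 8 counts in sgControl hypoxia replicate 3 and POU2F2 had 15 in replicate 2. Levels of different genes were compared per kilobase of exon. In sgControl in normoxia POU2F1 stood at 7.0 ± 1.59 CPM per kilobase (mean ± SD, n = 3 for this and all group values), LIN28B at 3.5 ± 0.529 and POU2F3 at 0.709 ± 0.26, against a median of 6.0 over all genes tested. This order was not kept: in sgXIST7 in hypoxia POU2F3 reached 9.18 ± 1.56 CPM per kilobase, above POU2F1 at 5.13 ± 0.684 and LIN28B at 0.614 ± 0.273.

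**Figure D1:**
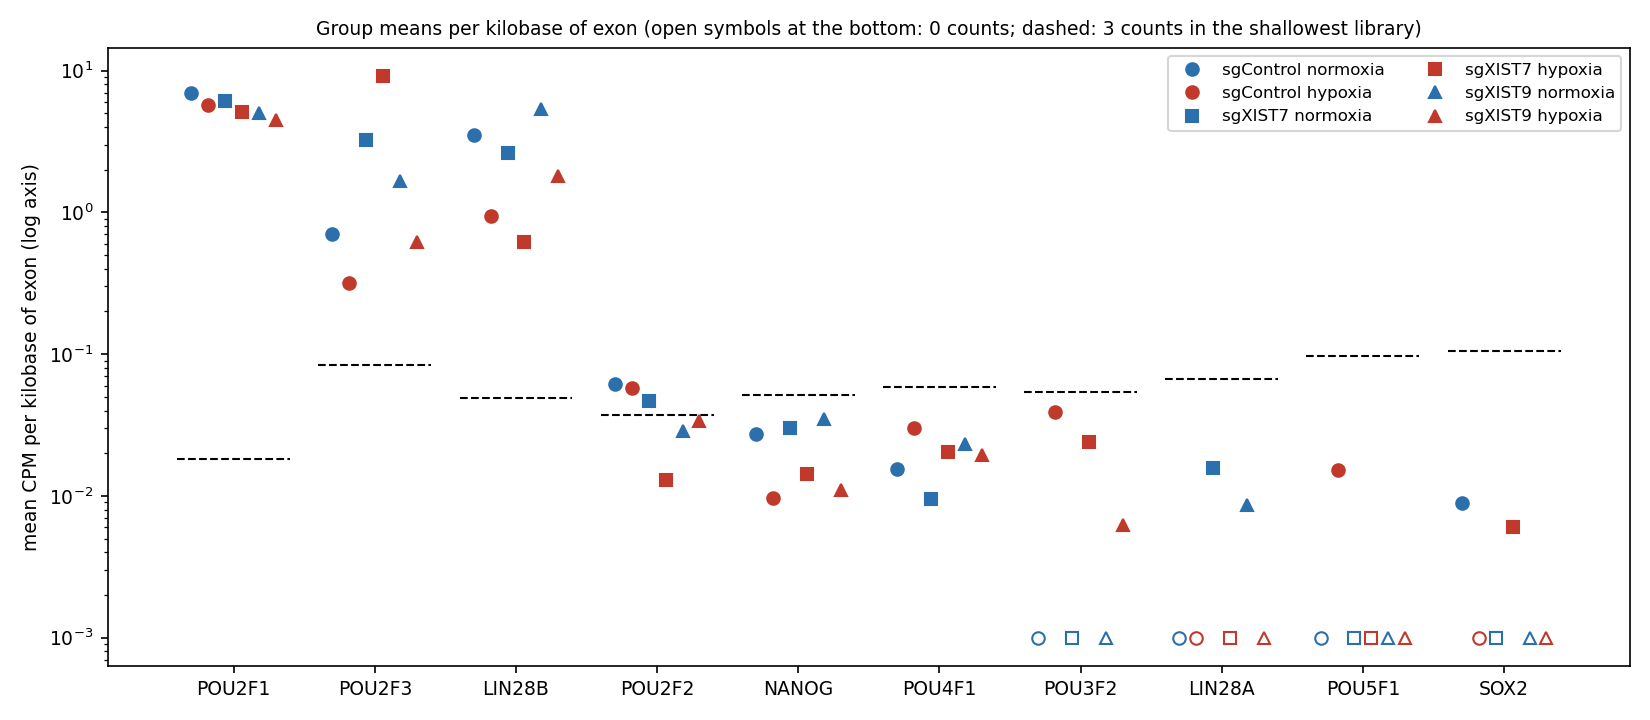
Mean CPM per kilobase of exon (log axis) of the 10 genes in the 6 groups, with circles for sgControl, squares for sgXIST7, triangles for sgXIST9, blue for normoxia and red for hypoxia. Open symbols at the bottom are groups with 0 counts and dashed lines mark 3 counts in the shallowest library; POU2F3 runs from 0.32 in sgControl in hypoxia to 9.18 in sgXIST7 in hypoxia, while 6 of the 7 genes at the right lie under the line in every group and POU2F2 straddles it.

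To find which of these genes differed, the quasi-likelihood test of edgeR was fitted to all 14938 genes that passed the filter. A gene was called at a Benjamini-Hochberg adjusted p under 0.01 with an absolute log2 fold change above 1. In normoxia POU2F3 was called higher in sgXIST7 against sgControl, where 4.67% of all genes were called higher and 3.09% lower, and none of the 3 genes was called lower. It was also called higher in sgXIST9 against sgControl (3.93% of all genes higher, 3.77% lower). Between the knockdown clones in normoxia (2.09% of genes higher in sgXIST7, 1.31% lower) LIN28B was called lower in sgXIST7 and nothing was called higher.

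Under hypoxia POU2F3 was again called higher in sgXIST7 against sgControl (7.83% of genes higher, 6.19% lower). In sgXIST9 against sgControl (6.14% higher, 3.39% lower) edgeR called 0 of the 3 genes, 2 of which had an unadjusted p under 0.05, and DESeq2 called 0 as well. Between the knockdown clones under hypoxia (2.06% higher in sgXIST7, 2.4% lower) POU2F3 was called higher and LIN28B lower in sgXIST7.

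Hypoxia itself changed LIN28B and POU2F3 in every clone. Both were called lower in sgControl, where 11.3% of all genes were called higher and 8.49% lower. Both were called lower in sgXIST9 (14.7% higher, 8.58% lower). In sgXIST7 (15.1% higher, 12.2% lower) LIN28B was called lower and POU2F3 higher. These 3 comparisons each have their own libraries.

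For the response to hypoxia, the difference between clones was tested as an interaction. POU2F3 was called as higher in the response of sgXIST7 against that of sgControl (0.904% of genes higher, 0.616% lower), and also in sgXIST7 against sgXIST9 (0.0803% higher, 0.087% lower), a comparison added after the values were seen. In the response of sgXIST9 against that of sgControl (0.663% higher and 0.348% lower, so 65.6% of calls were higher, against 75.7% with upper-quartile scaling) edgeR called 0 of the 3 genes. None had an unadjusted p under 0.05, and DESeq2 also called 0. The comparisons of sgXIST7 and of sgXIST9 with sgControl share the sgControl libraries.

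**Figure D2:**
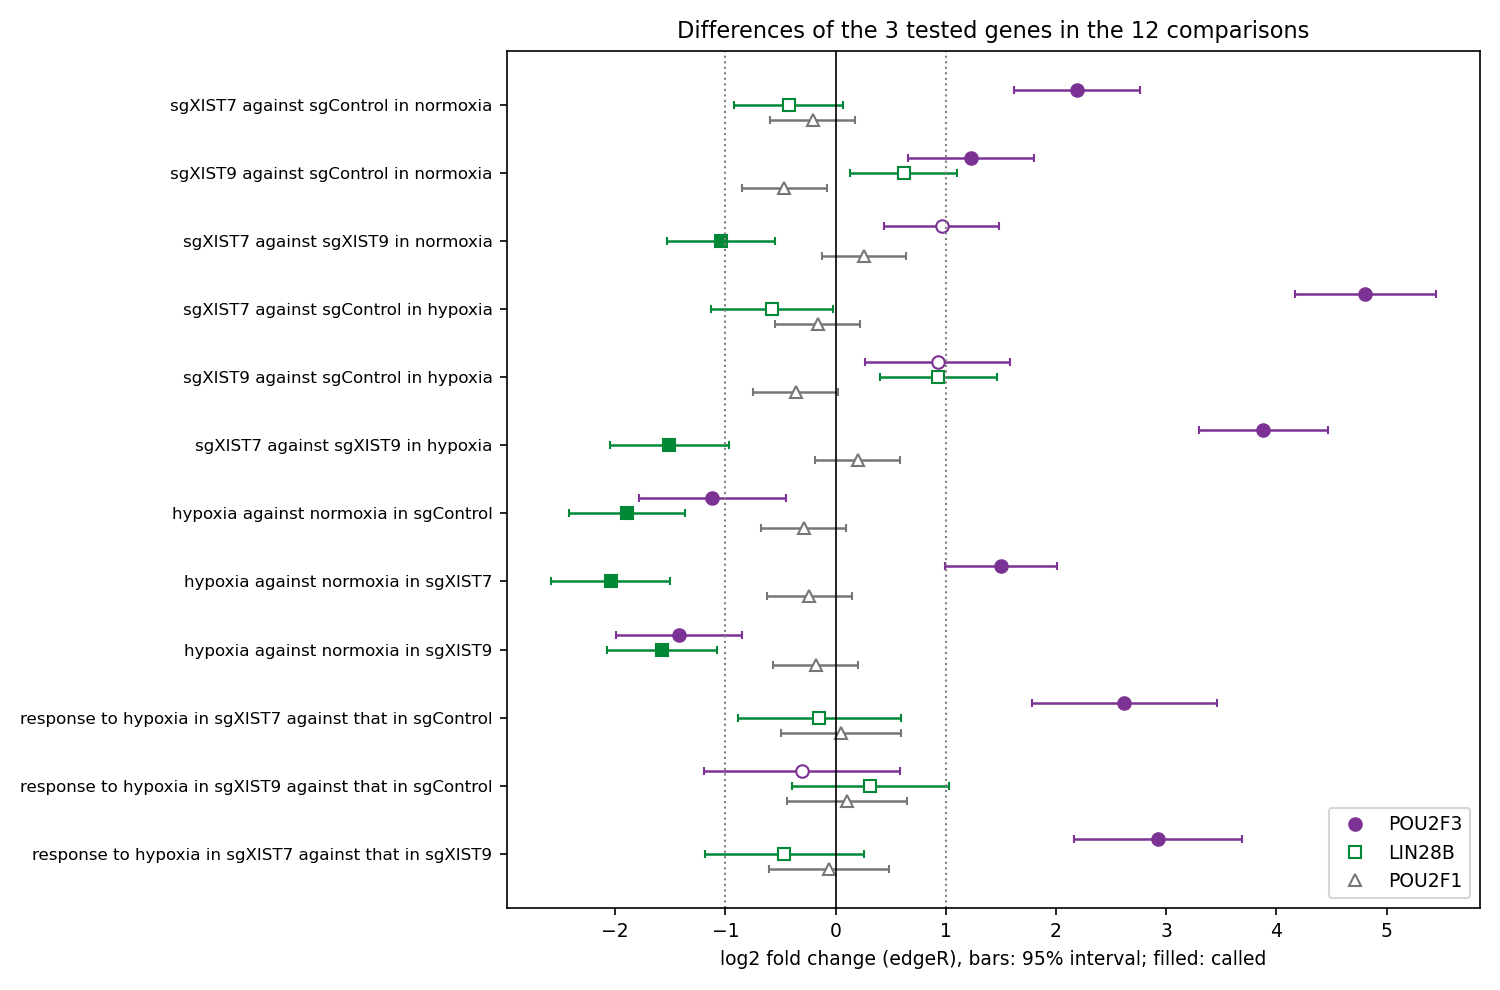
Log2 fold change in edgeR (horizontal axis) of POU2F3 (circles), LIN28B (squares) and POU2F1 (triangles) in the 12 comparisons, with 95% intervals; filled symbols were called and dotted lines mark -1 and 1. POU2F3 extends from -1.42 (hypoxia in sgXIST9) to 4.81 (sgXIST7 against sgControl in hypoxia), LIN28B lies between -2.04 and -1.58 for hypoxia in the 3 clones, and no POU2F1 symbol is filled.

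POU2F3, the tuft cell and keratinocyte factor (chr11:120236638-120319945, plus strand, 14 exon blocks), had the widest spread of the set. In normoxia its CPM was 3.15, 1.62 and 1.89 in sgControl, 13, 8.0 and 9.54 in sgXIST7, and 6.61, 4.99 and 4.03 in sgXIST9. The ranges of the 3 clones did not overlap, with sgXIST7 highest and sgControl lowest. In hypoxia its CPM was 1.31, 0.992 and 0.709 in sgControl, 25.5, 34.4 and 26.5 in sgXIST7, and 2.05, 1.95 and 1.83 in sgXIST9. Again no ranges overlapped, and each sgXIST7 library stood more than 10 times above every other hypoxia library.

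The group means of POU2F3 ran from 28.8 ± 4.89 CPM in sgXIST7 in hypoxia, through 10.2 ± 2.55 in sgXIST7 and 5.21 ± 1.3 in sgXIST9 in normoxia, to 2.22 ± 0.816 in sgControl in normoxia, 1.94 ± 0.111 in sgXIST9 in hypoxia and 1.0 ± 0.302 in sgControl in hypoxia. Only sgControl in normoxia and sgXIST9 in hypoxia, neighbours in this order, overlapped. Against sgControl in normoxia the log2 fold change was 2.19 (SE 0.27) in sgXIST7 and 1.23 (SE 0.27) in sgXIST9, and under hypoxia it was 4.81 (SE 0.30) and 0.93 (SE 0.31). Between the knockdown clones sgXIST7 was higher by 3.88 (SE 0.28) under hypoxia, while the difference of 0.96 (SE 0.25) in normoxia was not called. The fibroblast list's COL1A2, a collagen chain, was also higher in the knockdown clones, at 0.275 ± 0.173 CPM in sgControl, 96.7 ± 25.8 in sgXIST7 and 49.2 ± 15.2 in sgXIST9 in normoxia and at 0.213 ± 0.0767, 189 ± 102 and 45.5 ± 21.2 CPM in hypoxia, and its part in these differences was not tested. The POU2F3 call in sgXIST9 in normoxia was lost without sgControl normoxia replicate 2 (1.06), sgControl normoxia replicate 3 (1.12) or sgXIST9 normoxia replicate 1 (1.02).

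Hypoxia moved POU2F3 in opposite directions. It rose 2.83-fold by mean CPM in sgXIST7 (log2 fold change 1.5, SE 0.24) and fell to 37.3% of its normoxia mean in sgXIST9 (-1.42, SE 0.27) and to 45.2% in sgControl (-1.12, SE 0.32). The fall in sgControl rests on 101 and 49 counts over 3 libraries each and was the least firm. It was no longer called without sgControl normoxia replicate 1 (-0.79), sgControl hypoxia replicate 2 (-1.09), sgControl hypoxia replicate 3 (-0.96) or the 3 hypoxia libraries of number 3 (-0.96), and when only the compared groups were fitted (-1.10). The response of sgXIST7 exceeded that of sgControl by 2.62 (95% interval 1.78 to 3.46) and that of sgXIST9 by 2.92 (2.16 to 3.68) on the log2 scale, while those of sgXIST9 and sgControl differed by -0.30 (-1.19 to 0.59). Without the 3 libraries of number 3 the first pair of differences was 2.53 and 2.95.

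**Figure D3:**
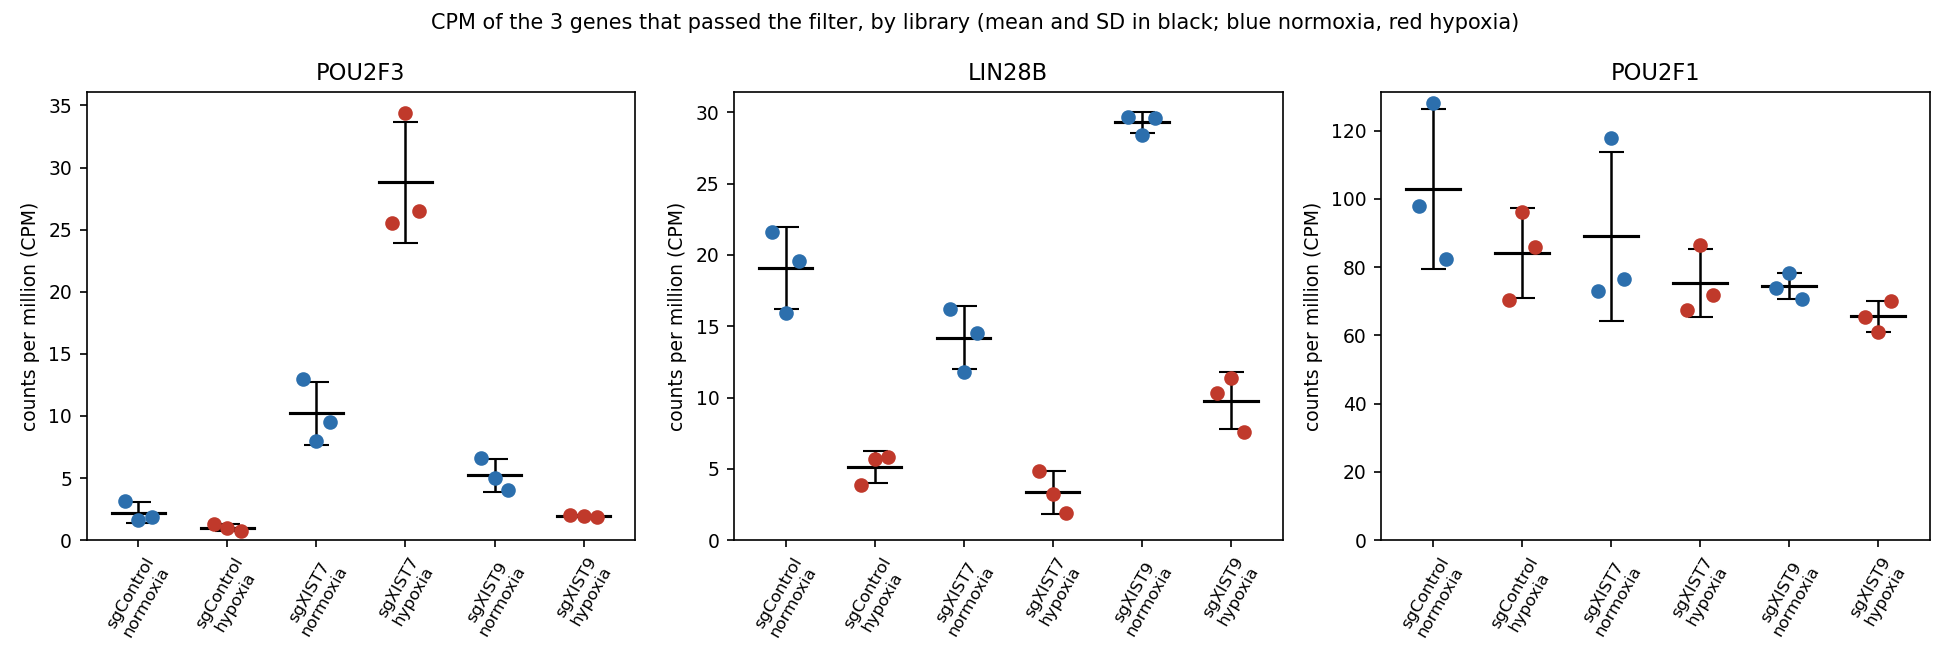
CPM (vertical axes from 0) of POU2F3, LIN28B and POU2F1 in each library of the 6 groups, blue for normoxia and red for hypoxia, with the mean and SD in black. The 3 sgXIST7 hypoxia libraries of POU2F3 lie between 25.5 and 34.4 CPM above all others, LIN28B is lower in hypoxia in every clone, and the POU2F1 groups largely overlap.

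POU2F1, the widely expressed octamer factor (chr1:167220885-167427345, plus strand, 20 exon blocks), was the steadiest of the set. Its CPM lay between 61.0 and 128 over the 18 libraries. The group means fell from 103 ± 23.4 in sgControl, 89.0 ± 24.9 in sgXIST7 and 74.4 ± 3.81 in sgXIST9 in normoxia to 84.2 ± 13.1, 75.3 ± 10.0 and 65.6 ± 4.57 in hypoxia, but neighbouring groups overlapped except for sgXIST9 in normoxia and in hypoxia. Its log2 fold changes between guides or oxygen levels lay between -0.47 and 0.26, and edgeR called it in none of the 12 comparisons. The lowest adjusted p was 0.081, for sgXIST9 against sgControl in normoxia (-0.47, 95% interval -0.85 to -0.08), where the unadjusted p was 0.021 and the libraries of the groups did not overlap. DESeq2 called it in none either. The 95% intervals of the hypoxia differences reach from -0.67 to 0.20, so changes within that range are not excluded.

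POU2F2, the B-cell octamer factor (chr19:42086123-42132473, minus strand), had 97 counts in all. It was counted in each normoxia library (8, 5 and 7 in sgControl, 7, 8 and 6 in sgXIST7, 5, 3 and 4 in sgXIST9). In hypoxia it ranged from 5, 15 and 2 in sgControl and 3, 13 and 0 in sgXIST9 to 3, 3 and 0 in sgXIST7. All 3 sgXIST7 hypoxia libraries were thus at or under the detection limit, and the 3 normoxia libraries of that clone were above it. Of the 8 lymphoid markers, the B-cell gene CD79A was counted most, with 5, 14 and 0 counts in sgControl and 0, 8 and 2 in sgXIST9 in hypoxia and at most 4 in every other group. Its highest counts were thus in replicate 2 of both groups, as were those of POU2F2, and its part in the POU2F2 counts was not tested. MS4A1, another B-cell marker, had 0 counts in every library, where the detection limit is 3 counts. Without a filter on low counts POU2F2 was called in no comparison of edgeR, and its lowest adjusted p was 0.08, for sgXIST7 against sgControl in hypoxia (-1.95). Without the 3 libraries of number 3 it passed the filter and was again not called (-1.91, adjusted p = 0.028).

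POU3F2 and POU4F1, the neural POU factors, were at the edge of detection. POU3F2 (chr6:98834574-98839458, plus strand, a single exon) had 0 counts in all 9 normoxia libraries, which allows at most 0.022 CPM over them (exact Poisson 95% interval). In hypoxia it had 18 counts (2, 9 and 0 in sgControl, 1, 1 and 3 in sgXIST7, 0, 2 and 0 in sgXIST9), or 0.111 CPM with an interval of 0.0659 to 0.176. Of them, 9 came from sgControl hypoxia replicate 2, which also had the most genes with a count, 19534 against at most 18633 elsewhere; whether this plays a part was not tested. Without a filter on low counts the adjusted p of POU3F2 for hypoxia in edgeR was 0.038 in sgControl, 0.093 in sgXIST7 and 0.36 in sgXIST9, and it was not called. POU4F1 (chr13:78598366-78603552, minus strand) had 12 counts in normoxia and 19 in hypoxia, or 0.0716 and 0.117 CPM, and was not called for hypoxia without a filter (adjusted p of 0.48, 0.5 and 0.95 in sgControl, sgXIST7 and sgXIST9 in edgeR). Its highest count, 7, was again in sgControl hypoxia replicate 2. Its exons share 1254 bases with LOC780529 on the other strand, which had 0 counts in every library.

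LIN28B (chr6:104957107-105083332, plus strand, 4 exons) was the only one of the 4 genes outside the POU family that passed the filter. In normoxia its CPM was 21.6, 15.9 and 19.6 in sgControl, 16.2, 11.8 and 14.5 in sgXIST7, and 29.7, 28.4 and 29.6 in sgXIST9. In hypoxia it was 3.88, 5.71 and 5.85 in sgControl, 4.87, 3.26 and 1.9 in sgXIST7, and 10.3, 11.4 and 7.57 in sgXIST9. Within each clone every hypoxia library lay below every normoxia library. The sgXIST9 libraries were the highest of the 3 clones at both oxygen levels, and the other clones overlapped each other.

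Under hypoxia LIN28B fell to 27.0% of its normoxia mean in sgControl (log2 fold change -1.89, SE 0.25, adjusted p = 1.1e-05), to 23.6% in sgXIST7 (-2.04, SE 0.25, adjusted p = 3.2e-06) and to 33.4% in sgXIST9 (-1.58, SE 0.24, adjusted p = 3e-05) in edgeR. These calls held without the number 3 libraries (-1.98, -1.79 and -1.42). A difference in the response was not detected: that of sgXIST7 differed from that of sgControl by -0.15 (95% interval -0.89 to 0.59), that of sgXIST9 by 0.32 (-0.40 to 1.03), and that of sgXIST7 from sgXIST9 by -0.47 (-1.19 to 0.26). The response to low oxygen was thus the common feature of LIN28B in the 3 clones.

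The level of LIN28B in the knockdown clones went to either side of sgControl. In normoxia it was -0.43 (SE 0.23, adjusted p = 0.22) in sgXIST7 and 0.62 (SE 0.23, adjusted p = 0.068) in sgXIST9 on the log2 scale, and neither was called. The clones differed from each other by -1.04 (SE 0.23, adjusted p = 0.0072), a call that was lost when any 1 of their 6 libraries was left out (values -1.15 to -0.93). Under hypoxia the clones differed by -1.51 (SE 0.26, adjusted p = 0.00059), which was no longer called when only those groups were fitted (-1.50, adjusted p = 0.033). Against sgControl in hypoxia, sgXIST7 stood at -0.58 (SE 0.26, adjusted p = 0.088) and sgXIST9 at 0.93 (SE 0.25, adjusted p = 0.0094), just under the fold threshold. The latter was called without sgControl hypoxia replicate 3 (1.02), sgXIST9 hypoxia replicate 3 (1.08) or the 3 libraries of number 3 (1.17).

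LIN28A, the paralog of LIN28B (chr1:26410817-26429728, plus strand), had 6 counts in 18 libraries. All were in knockdown clones in normoxia: 0, 1 and 3 in sgXIST7 and 1, 0 and 1 in sgXIST9. No library exceeded the limit of 3 counts, so a difference from the 0 counts elsewhere cannot be read from them.

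The core pluripotency factors were barely counted. POU5F1 (chr6:31164337-31170682, minus strand, and on further contigs that its length in the table includes) had 2 counts, both in sgControl hypoxia replicate 1. SOX2 (chr3:181711925-181714435, plus strand) had 1 count in a normoxia and 1 in a hypoxia library, with pooled upper limits of 0.0332 and 0.0344 CPM. NANOG (chr12:7789402-7799146, plus strand) was counted 0, 4 and 2 times in sgControl, 3, 3 and 4 times in sgXIST7 and 1, 6 and 3 times in sgXIST9 in normoxia. In hypoxia it had 1, 0 and 1, 0, 3 and 1, and 0, 1 and 2 counts. Summed over clones, that is 26 counts in normoxia (0.101 to 0.227 CPM) and 9 in hypoxia (0.0254 to 0.106 CPM), where the intervals cover counting error only. Within each clone, without a filter, NANOG was not called for hypoxia by edgeR (adjusted p of 0.41, 0.49 and 0.26 in sgControl, sgXIST7 and sgXIST9).

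Low counts of POU5F1 and NANOG can be lowered by near-identical copies elsewhere in the genome, since a read that fits several places may not be counted. Of the 50-base stretches in their exons, 61.1% (POU5F1) and 59.5% (NANOG) occurred once in the hg38 chromosomes, against 97.5% for SOX2, 100% for POU3F2 and 88.6% for LIN28B. The copies POU5F1P5 (6 to 34 counts per library) and NANOGP8 (0 to 13) were counted more often than POU5F1 and NANOG themselves. The values of these genes are uncertain for that reason, while SOX2 is nearly free of it.

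**Figure D4:**
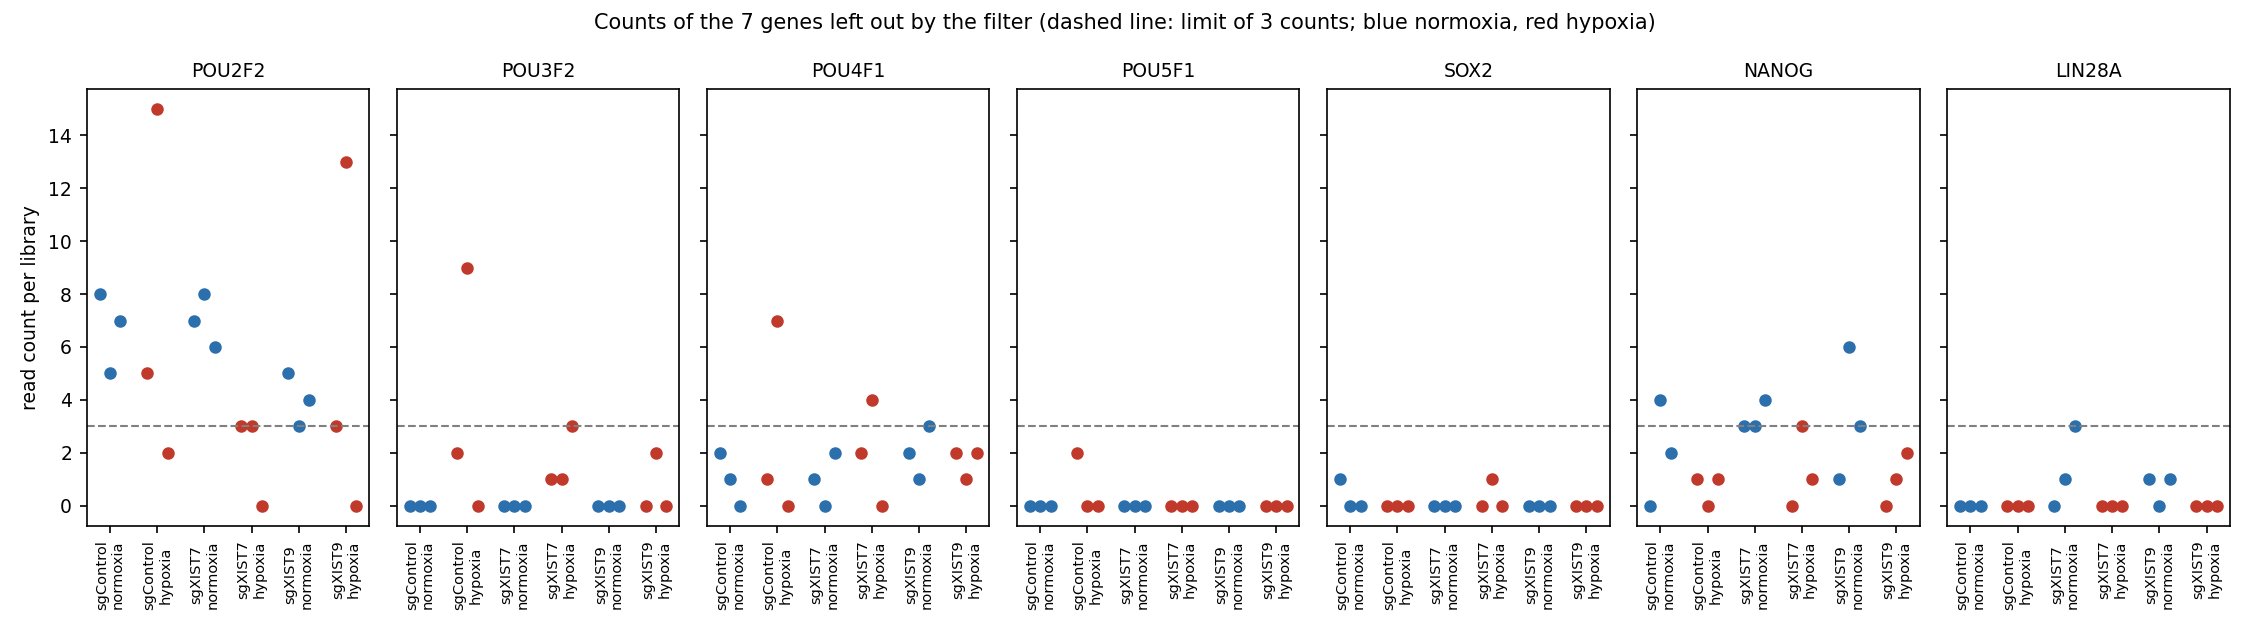
Read counts (vertical axis) in each of the 18 libraries for the 7 genes left out by the filter, in the 6 groups along each horizontal axis, blue for normoxia and red for hypoxia; the dashed line marks 3 counts. POU2F2 reaches 15 counts and POU3F2 9 in sgControl hypoxia replicate 2, and POU5F1, SOX2 and LIN28A never pass 3.

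Around the 10 genes, 5 lists of related genes were counted in the same fit. Of 13 other POU genes and POU2 coactivators, 9 had at most 3 counts in every library and 3 were tested (POU3F1, POU5F2 and POU6F1). The coactivators that POU2F3 uses in tuft cells were not among the expressed genes: COLCA2 (POU2AF3) reached 1 count and C11orf53 (POU2AF2) 0. POU2AF1, another POU2 coactivator, also reached 1 count. In the knockdown comparisons edgeR and DESeq2 called 0 of the 3 genes at either oxygen level, with 2 (sgXIST7) and 1 (sgXIST9) at an unadjusted p under 0.05 in hypoxia and 0 in normoxia. Per direction, 3.09% to 7.83% of all genes were called by edgeR in these comparisons. POU3F1 (OCT6), an epidermal and glial factor, had 0 counts in sgControl in normoxia and 36, 48 and 1 in hypoxia. By mean CPM this was a rise of at least 7.8-fold against the limit of 3 counts per library, but replicate 3 itself was under that limit. POU3F1 passed the filter through hypoxia libraries alone, so against normoxia it could only be called higher. It was also called higher in sgXIST9 (0 to 2 counts in normoxia, 15, 21 and 7 in hypoxia). In sgXIST7 it had 12, 7 and 1 counts in hypoxia and was called only without the number 3 libraries, which held its lowest hypoxia count in each clone. Without them it was also called lower in sgXIST7 than in sgControl under hypoxia. POU6F1 fell in hypoxia and was called in sgXIST7, from 10.3 ± 0.939 to 4.67 ± 1.57 CPM (log2 fold change -1.16, adjusted p = 8.5e-05).

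The pluripotency network list, the wider circle around POU5F1, SOX2 and NANOG, had 40 genes, of which 18 were tested and 19 had at most 3 counts in every library. In normoxia 0 were called higher and 5 lower in sgXIST7 against sgControl, and 0 and 4 in sgXIST9, with median log2 fold changes of -0.45 and -0.60 against -0.01 and -0.02 over all genes tested; 10 and 11 of the 18 had an unadjusted p under 0.05, and DESeq2 called 0 higher and 6 and 5 lower. Of all genes tested, 4.67% were called higher and 3.09% lower in sgXIST7, and 3.93% and 3.77% in sgXIST9. Genes called lower in both clones were TBX3 (1.71 ± 0.3 CPM in sgControl, 0 counts in sgXIST7 and at most 1 in sgXIST9), TFCP2L1 (6.73 ± 0.807 CPM, at most 3 and 2 counts) and SOX3 (3.3 ± 0.37, 1.07 ± 0.425 and 0.692 ± 0.2 CPM). TBX3 and TFCP2L1 support the naive state of mouse stem cells, and SOX3 is a close relative of SOX2. However, TBX3 and TFCP2L1 passed the filter through the sgControl libraries alone, so against sgControl they could only be called lower. The counts of lower genes and the medians of this list are in part set by that.

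Under hypoxia the same list had 4 genes higher and 1 lower in sgControl, 7 and 1 in sgXIST7, and 7 and 1 in sgXIST9, with medians of 0.43, 1.05 (0.68 with genes at 0 counts set to their bound) and 1.21 against 0.02, 0.01 and 0.09 over all genes. Over all genes 11.3% were called higher and 8.49% lower in sgControl, 15.1% and 12.2% in sgXIST7, and 14.7% and 8.58% in sgXIST9. KLF2, KLF5 and JARID2 were called higher in all 3 clones and DNMT3B lower in all 3. KLF2, a Krüppel-like factor, went from 1.24 ± 0.308 to 20.3 ± 3.87 CPM in sgControl, and DNMT3B, a de novo DNA methyltransferase, from 25.2 ± 2.37 to 7.46 ± 0.815. JARID2, a Polycomb cofactor, rose from 22.4 ± 1.61 to 98.0 ± 22.5 CPM in sgXIST7. KLF4, one of the reprogramming factors, was called in sgControl alone (4.13 ± 0.831 to 31.8 ± 21.2 CPM). For a difference in the response between clones edgeR called 0 of the 18 genes in any of the 3 comparisons, with 6 (sgXIST7 against sgControl), 2 (sgXIST9 against sgControl) and 5 (sgXIST7 against sgXIST9) at an unadjusted p under 0.05, and DESeq2 called 1 higher and 1 lower in the first and 0 in the others. Without the number 3 libraries edgeR called 1 higher and 1 lower in the first, 1 lower in the second and 1 higher in the third. Against sgControl in hypoxia 1 gene was higher and 4 lower in sgXIST7 (7.83% and 6.19% of all genes). In sgXIST9 it was 0 and 5 (6.14% and 3.39%), and TBX3 and TFCP2L1 were among the lower genes of both. Without the number 3 libraries 7 were lower in sgXIST7 and 6 in sgXIST9. Without them, hypoxia called 4 higher and 2 lower in sgControl, 6 and 1 in sgXIST7, and 8 and 1 in sgXIST9.

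The LIN28 and let-7 axis list had 30 genes, of which 28 were tested. In normoxia 0 were called higher and 1 lower in sgXIST7, and 0 and 2 in sgXIST9; 6 and 10 had an unadjusted p under 0.05, and DESeq2 gave the same counts. Over all genes tested, 4.67% were called higher and 3.09% lower in sgXIST7, and 3.93% and 3.77% in sgXIST9. The gene called in both clones was MIR99AHG, the host transcript of let-7c, at 56.9 ± 7.4 CPM in sgControl, 27.2 ± 2.33 in sgXIST7 and 18.6 ± 0.62 in sgXIST9. Under hypoxia 3 were higher and 3 lower in sgControl, 4 and 3 in sgXIST7, and 1 and 3 in sgXIST9, with medians of -0.11, -0.16 and 0.02 against 0.02, 0.01 and 0.09 over all genes. Of all genes tested, 11.3% and 8.49% were called higher and lower in sgControl, 15.1% and 12.2% in sgXIST7, and 14.7% and 8.58% in sgXIST9, so the list's counts out of 28 are near or, for higher calls in sgXIST9, below this background. Without the number 3 libraries 3 were higher and 2 lower in sgControl, 2 and 3 in sgXIST7, and 2 and 4 in sgXIST9. Against sgControl in hypoxia 1 was higher and 3 lower in sgXIST7 (7.83% and 6.19% of all genes), and 1 and 2 in sgXIST9 (6.14% and 3.39%). These became 1 and 4, and 1 and 3, without the number 3 libraries. With the replicate number as a block 4 rather than 2 were lower in sgXIST9.

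As single genes of this list, DROSHA, the nuclease that cuts primary microRNAs, fell in all 3 clones (63.0 ± 14.2 to 28.0 ± 4.03 CPM in sgControl), as did CDC25A, a cell cycle phosphatase (72.8 ± 4.14 to 36.1 ± 9.67 CPM in sgControl and 65.3 ± 9.78 to 12.5 ± 1.7 in sgXIST7). HMGA1, a chromatin protein, was called lower in sgXIST7 (184 ± 49.7 to 80.3 ± 13.7 CPM) and sgXIST9 (263 ± 48.5 to 106 ± 28.7 CPM). THBS1, a secreted matrix protein, rose in all 3 clones (2.48 ± 0.591 to 12 ± 7.48 CPM in sgControl), and CCND2, cyclin D2, was called higher in sgControl and sgXIST7 (0.135 ± 0.0199 to 2.66 ± 1.58 CPM in sgControl). CCND2 passed the filter through hypoxia libraries alone, so against normoxia it could only be called higher.

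The table also has 11 rows for let-7 hairpin genes, which were looked at after their values were seen. They count reads of longer transcripts over the hairpins, not the mature RNAs shown above, which are too short for such libraries. Of the 11 rows, 3 were at 0 in every library and 5 were tested. Summed, they stood at 4.1 ± 0.474, 3.9 ± 0.661 and 3.51 ± 0.718 CPM in sgControl, sgXIST7 and sgXIST9 in normoxia and at 5.03 ± 0.245, 5.09 ± 0.314 and 3.83 ± 0.65 CPM in hypoxia. In the 12 comparisons 0 of the 5 rows were called by edgeR or by DESeq2, and in 3 comparisons 1 row had an unadjusted p under 0.05.

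The tuft cell list, genes that mark or act in the cells POU2F3 specifies, had 26 genes, of which 9 were tested and 12 had at most 3 counts in every library. TRPM5, the defining channel of these cells, reached 7 counts, and CHAT had 0. Against sgControl in normoxia 1 gene was higher and 2 lower in sgXIST7 (4.67% and 3.09% of all genes). In sgXIST9 it was 0 and 2 (3.93% and 3.77%), where 3 had an unadjusted p under 0.05 and DESeq2 called 1 higher and 2 lower. In hypoxia it was 2 and 2 in sgXIST7 (7.83% and 6.19%), and 1 and 2 in sgXIST9 (6.14% and 3.39%). These became 3 and 2, and 2 and 1, without the number 3 libraries. SOX9 was the gene called lower in both clones in normoxia (5.48 ± 0.481 CPM in sgControl, 0.175 ± 0.0462 in sgXIST7, 0.0956 ± 0.122 in sgXIST9). However, SOX9 passed the filter through the sgControl libraries, so against sgControl it could only be called lower. The counts of lower genes in these comparisons are in part set by that.

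Hypoxia called 3 of the 9 tuft cell genes higher and 0 lower in sgControl (11.3% and 8.49% of all genes). It called 3 and 1 in sgXIST7 (15.1% and 12.2%) and 3 and 1 in sgXIST9 (14.7% and 8.58%). In sgControl 4 of the 9 had an unadjusted p under 0.05, and DESeq2 also called 3 and 0. Without the number 3 libraries the counts of the 3 clones were 3 and 1, 2 and 1, and 4 and 1. ASCL2, which in epithelia acts in stem cells and tuft cells, rose from 0.066 ± 0.0391 to 6.88 ± 1.2 CPM in sgXIST7 and was called in all 3 clones, as was AVIL, an actin-binding protein (0.46 ± 0.104 to 11.1 ± 1.07 CPM in sgXIST7). GNAT3, the taste G protein gustducin, fell in sgXIST7 (6.6 ± 0.91 to 1.8 ± 0.563 CPM) and sgXIST9 (27.2 ± 4.59 to 5.38 ± 1.01 CPM). PLCG2, a phospholipase, was called higher in sgControl and sgXIST9 and HMX3, a homeobox factor, in sgXIST7 (at most 12 counts). However, ASCL2 and AVIL passed the filter through hypoxia libraries alone, so against normoxia they could only be called higher. The counts of higher genes of this list under hypoxia are in part set by that.

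The neural lineage list, for the tissue of POU3F2 and POU4F1, had 33 genes with 14 tested and 15 at most at 3 counts in every library, and SOX2-OT, the transcript that spans SOX2, reached 5 counts. In normoxia 2 were higher and 2 lower in sgXIST7 (4.67% and 3.09% of all genes), and 2 and 3 in sgXIST9 (3.93% and 3.77%). The medians were -0.19 and 0.19. Called in both clones were SOX1, a neural relative of SOX2 (7.6 ± 0.831 CPM in sgControl, 0 counts in sgXIST7 and 2 to 5 in sgXIST9), NCAM1, an adhesion molecule (4.41 ± 1.04, 0.827 ± 0.0838 and 0.0687 ± 0.0611 CPM), and, in the other direction, NES, the intermediate filament nestin (12.2 ± 5.55, 91.9 ± 3.62 and 322 ± 9.45 CPM). SOX1 passed the filter through the sgControl libraries alone, so against sgControl it could only be called lower. Against sgControl in hypoxia 2 were higher and 4 lower in sgXIST7 (7.83% and 6.19% of all genes). In sgXIST9 it was 3 and 2 (6.14% and 3.39%), which became 2 and 2 without the number 3 libraries.

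Under hypoxia 3 of the 14 neural genes were higher and 1 lower in sgControl (11.3% and 8.49% of all genes). In sgXIST7 it was 2 and 2 (15.1% and 12.2%). In sgXIST9 it was 1 and 0 (14.7% and 8.58%), where 8 had an unadjusted p under 0.05 and DESeq2 gave the same counts. The counts in the knockdown clones are thus near or below the share over all genes. PRPH, the neurofilament peripherin, rose in sgXIST7 (5.79 ± 0.876 to 36.2 ± 17.6 CPM) and sgXIST9 (1.26 ± 0.349 to 6.74 ± 3.25). ELAVL3, an RNA-binding protein of neurons, was called higher in sgControl and sgXIST7, and NHLH1 and SYP in sgControl, where NES fell (12.2 ± 5.55 to 4.5 ± 1.89 CPM), as it did in sgXIST7 (91.9 ± 3.62 to 40.4 ± 12.5 CPM). Without the number 3 libraries 4 were higher and 2 lower in sgControl, 2 and 3 in sgXIST7, and 2 and 0 in sgXIST9. ELAVL3 and NHLH1 passed the filter through hypoxia libraries alone, so against normoxia they could only be called higher. The counts of higher genes in sgControl and sgXIST7 are in part set by that.

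For LIN28B and POU2F3, the 3 genes with the most similar profile were found by the root mean square difference of log2 CPM, centred on each gene's mean, over the 18 libraries and 13212 genes with a mean of at least 1 CPM. For LIN28B these were ATP5MC1 (0.32), a subunit of ATP synthase, NOS3 (0.39), the endothelial nitric oxide synthase, and RASAL2 (0.39), a Ras GTPase-activating protein, against a median of 1.18. ATP5MC1 fell under hypoxia from 57.8 to 22.4 CPM in sgControl, 55.0 to 12.2 in sgXIST7 and 91.0 to 27.0 in sgXIST9, with the clones in the order of LIN28B in normoxia. For POU2F3 the nearest were TSPAN1 (0.88), AGMO (0.89) and CAPN14 (0.89), against a median of 1.68, so no gene followed its profile as closely. TSPAN1, a tetraspanin, also peaked in sgXIST7 in hypoxia (94.6 CPM) but did not fall with hypoxia in the other clones (2.54 to 3.77 in sgControl and 7.04 to 11.1 in sgXIST9).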

How the data were processed

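Per the labels, RNA was extracted with Trizol and made into stranded total RNA libraries (TruSeq). By the study's methods and the file header, the authors trimmed reads with Trimmomatic, aligned them with HISAT2 to hg38 and deposited whole-number counts per gene from featureCounts. Versions, annotation release and strand setting are not given in the sources used here. The table held 28279 lines, of which 2 are a broken record and were dropped. Another column gives exon length.

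Counts were fitted in edgeR 4.0.16 (R 4.3.3): TMM factors (0.859 to 1.12), a filter at 10 counts, a quasi-likelihood fit of the 6 groups, and a Benjamini-Hochberg adjusted p under 0.01 with absolute log2 fold change above 1. CPM uses these factors. DESeq2 1.42.0, which the authors used, other scalings and filters, the compared groups alone, a looser threshold, a replicate block and leaving out each library were alternatives. The scripts were tested on simulated data.

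The 10 genes and all lists were chosen with earlier results of these data known. Named from a list are genes called in both knockdown clones in normoxia, or in any hypoxia comparison, up to 5 by mean log2 fold change. Lists were described by counts and medians, with no set test. Marker lists covered ovarian epithelial cancer, lymphoid, fibroblast and endothelial cells. The genes with a profile most like that of POU2F1 are not reported here. Same-number libraries deviated together, by the correlation of their deviations from the group means (all 3 pairs above 0.1), between sgControl and sgXIST7 in normoxia and sgControl and sgXIST9 in hypoxia, which were taken as paired there from the data alone. Leaving out the 3 hypoxia libraries of number 3, and the block for the lists, were chosen after seeing the data.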

Additional observations from a re-analysis of the deposited data

Results flagged for a closer look

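The response of POU2F3 to hypoxia differed between clones by the interaction term of the fit. On the log2 scale it was higher by 2.62 (SE 0.40) in sgXIST7 than in sgControl and by 2.92 (SE 0.36) in sgXIST7 than in sgXIST9, with a rise in sgXIST7 and falls in the other clones. Both differences stayed called in all alternatives run, at 2.29 to 2.84 and 2.71 to 3.14. POU2F3 had been named in earlier results of these libraries, so this is a description.

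POU3F2, which was left out of the tests for its low counts, had 18 counts over the 9 hypoxia libraries and 0 over the 9 normoxia libraries. The 18 counts lie in 6 libraries and 9 of them in sgControl hypoxia replicate 2.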

How the results depend on the processing

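How many of the 3 tested genes were called changed in 18 of 195 recounts. Over the fits that left out 1 library, the number ranged from 0 to 1 for sgXIST9 against sgControl in normoxia, sgXIST7 against sgXIST9 in normoxia and sgXIST9 against sgControl in hypoxia, and from 1 to 2 for hypoxia in sgControl. Without the 3 hypoxia libraries of number 3 it was 1 for sgXIST9 against sgControl in hypoxia and 1 for hypoxia in sgControl, and with only the compared groups fitted 1 for sgXIST7 against sgXIST9 in hypoxia and 1 for hypoxia in sgControl; such fits have fewer libraries to estimate the spread from. Small uncalled differences changed sign when a library was left out: POU2F1 for hypoxia in sgXIST7 (-0.37 to 0.0094), for the response of sgXIST7 against sgControl (-0.14 to 0.30), of sgXIST9 against sgControl (-0.0826 to 0.24) and of sgXIST7 against sgXIST9 (-0.18 to 0.20, and 0.0318 without the number 3 libraries), and LIN28B for the response of sgXIST7 against sgControl (-0.51 to 0.10, and 0.18 without the number 3 libraries). Over all genes, the calls for the response of sgXIST7 against sgControl were 227 and ranged from 79 to 1288, of sgXIST9 against sgControl from 57 to 822 about 151, and of sgXIST7 against sgXIST9 from 6 to 289 about 25. In hypoxia the fit of the compared groups alone called 1113 rather than 2093 genes for sgXIST7 against sgControl, 641 rather than 1423 for sgXIST9, and 323 rather than 666 between the knockdown clones. At an adjusted p under 0.05 no count of tested genes changed, and 8 of 70 list counts moved by over 1.5 times.

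Library numbers 1 to 3 recur in every group, but nothing says that they mark a shared batch. Deviations from the group means correlated above 0.1 in 15 of 45 same-number pairs (-0.073 to 0.566). All 3 pairs did so between sgControl and sgXIST7 in normoxia (0.148 to 0.379) and between sgControl and sgXIST9 in hypoxia (0.197 to 0.566), so the numbers were taken as pairing in these comparisons and in none of the others. A fit with the replicate number as a block left the count of tested genes called as it was in all 12 comparisons, with POU2F3 at 2.65 for the response of sgXIST7 against sgControl, and raised the calls over all genes there from 227 to 371. The 7 genes left out by the filter had at most 15 counts in a library, and without a filter edgeR called none of them in the 12 comparisons.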
